A study of Mus musculus with 36 samples.

Results

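The genes followed here encode enzymes of fatty acid oxidation and acyl-CoA thioesterases, measured in epididymal white adipose tissue (eWAT), namely Cpt1a, Cpt1b, Cpt2, Acadm, Acadvl, Hadha, Ehhadh, Acot1 and Acot3. They were taken from the deposited table by the Ensembl ID that maps to each symbol, and all 9 were found among the 24750 genes of the table, each in 1 row. The eWAT libraries came from 36 male mice in 12 groups of 3. The mice were C57BL/6 wild-type (WT) or CCL19-KI, in which Ccl19 had been knocked into the Adipoq locus, a gene read mainly in adipocytes. CCL19-KI mice were kept as a homozygous line, and WT mice were bred apart from them, so that the genotype and the breeding colony cannot be told apart. Mice of each genotype received a normal diet (ND), a 40% high-fat diet (40% HFD) or a 60% HFD for 10 weeks, either without ligature or with ligature-induced periodontitis (LIP) for the last 2 weeks, which began at 14 weeks of age. The labels name a ligature in 18 of the 36 libraries and were followed, although the text on the study design speaks of ligature in all groups.

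Long-chain fatty acids enter mitochondria as carnitine esters and are then shortened by rounds of beta-oxidation. In adipose tissue most fatty acids are stored or released rather than burnt, whereas liver, muscle and brown fat oxidize them at a high rate. Cpt1a (liver type) and Cpt1b (muscle type) encode the outer membrane enzyme that makes acylcarnitine, which is the step held back by malonyl-CoA, and Cpt2 encodes the inner membrane enzyme that turns it back into acyl-CoA. Acadvl and Acadm encode the dehydrogenases of very-long-chain and medium-chain acyl-CoA, and Hadha encodes the alpha subunit of the mitochondrial trifunctional protein. Ehhadh encodes the bifunctional enzyme of peroxisomal oxidation. Acot1 and Acot3 encode thioesterases, of the cytosol and of the peroxisome, which split acyl-CoA into free fatty acid and coenzyme A. Several of these genes are known targets of the nuclear receptor PPAR-alpha in liver. Alb encodes albumin, which is made by hepatocytes, and was set beside the 9 genes throughout.

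On GRCm38, the genes lie on 8 chromosomes, and only Acot1 (12:84009490-84018371) and Acot3 (12:84052144-84060402) share 1, both in a thioesterase cluster on the plus strand. Ehhadh covers 16:21761287-21787807 on the minus strand, and Cpt1b covers 15:89416405-89425863 on the minus strand. The promoter table of RefSeq (GRCm38.p6) held 8 of the 9 genes, all but Cpt1b, and gave 2 nearby starts for Acot3, of which the first is used. The 250 bases before the start are printed for Acot3, Acot1 and Ehhadh, whose values followed Alb most steeply (given further on), and for Acadvl and Cpt1a, whose slopes were shallower; capitals mark the hexamer AGGTCA or its reverse complement TGACCT, which is 1 arm of the repeat bound by nuclear receptors of the PPAR kind.
Acot3, chr12:84051894-84052143, plus strand: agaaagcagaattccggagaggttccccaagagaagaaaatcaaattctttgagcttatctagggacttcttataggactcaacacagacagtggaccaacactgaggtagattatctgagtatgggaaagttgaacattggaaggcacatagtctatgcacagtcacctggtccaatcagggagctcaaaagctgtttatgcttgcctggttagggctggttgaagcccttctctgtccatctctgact
Acot1, chr12:84009252-84009501, plus strand: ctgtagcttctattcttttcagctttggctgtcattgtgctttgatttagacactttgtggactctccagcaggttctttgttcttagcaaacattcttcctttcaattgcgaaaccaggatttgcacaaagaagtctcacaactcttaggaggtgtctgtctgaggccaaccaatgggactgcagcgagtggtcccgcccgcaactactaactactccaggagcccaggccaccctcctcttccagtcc
Ehhadh, chr16:21787835-21788084, minus strand: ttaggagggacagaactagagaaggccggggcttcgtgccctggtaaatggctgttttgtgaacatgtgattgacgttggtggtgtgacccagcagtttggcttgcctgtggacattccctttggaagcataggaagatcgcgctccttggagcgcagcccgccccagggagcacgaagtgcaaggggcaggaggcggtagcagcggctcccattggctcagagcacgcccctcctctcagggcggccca
Acadvl, chr11:70015429-70015678, minus strand: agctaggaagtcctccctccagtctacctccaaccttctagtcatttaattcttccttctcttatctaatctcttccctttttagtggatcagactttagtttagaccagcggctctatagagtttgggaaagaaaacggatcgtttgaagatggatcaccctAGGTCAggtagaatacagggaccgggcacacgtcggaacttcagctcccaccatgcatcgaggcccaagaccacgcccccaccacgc
Cpt1a, chr19:3323051-3323300, plus strand: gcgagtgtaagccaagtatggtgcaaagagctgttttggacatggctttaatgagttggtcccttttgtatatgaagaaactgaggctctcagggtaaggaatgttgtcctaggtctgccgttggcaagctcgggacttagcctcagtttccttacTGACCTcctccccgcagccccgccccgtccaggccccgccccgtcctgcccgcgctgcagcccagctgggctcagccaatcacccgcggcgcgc
Exact hexamers on either strand were found in 3 of the 8 genes (Cpt1a, Acadm and Acadvl), and in 14.0% of all 32851 promoters of the same length. The direct repeat AGGTCANAGGTCA, allowed 2 mismatches, was found in 0 of the 8 genes and in 3.24% of all promoters. None of the 3 steepest genes held the hexamer in this window, and neither did Cpt2 and Hadha, whose slopes were shallow (0.13 and 0.11). The Cpt1a window lies inside the annotated span of that gene, 19:3322334-3385733.

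Some reads could not be assigned to 1 gene with certainty. Of the 31-base words of Cpt1b transcripts, 79.7% were also in those of Gm44502, an annotated gene that overlaps it on the same strand, and this gene was counted in its own row at 0 to 1.27 normalized CPM (read counts scaled to library size). Of the words of Acot1 and Acot3, 22.7% and 23.1% occurred in other genes, with most shared with Acot2 (16.7%) and the overlapping Gm49366 (11.5%), respectively. Levels of Cpt1b, Acot1 and Acot3 are therefore less certain than those of Cpt2 and Acadvl, which shared 0 words, and of Hadha and Ehhadh, which shared under 0.2%.

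Before the comparisons, the labels and the tissue were checked. Ccl19 was 0.507 to 4.51 normalized CPM in 17 WT libraries and 5.57 to 34.6 in 17 CCL19-KI libraries. The library labelled ND-fed WT without ligature replicate 2 had 19.2, however, and the library labelled 60% HFD-fed CCL19-KI without ligature replicate 3 had 0.687, so each of these lies in the range of the other genotype; results that change without both are given. Adipocyte markers (10 genes, including Plin1, Lep and Cidec) summed to 5644 to 34047 normalized CPM. The 12 hepatocyte markers summed to 12.6 to 38776, and kidney, epididymis, pancreas and muscle markers varied as well. Reads per library ranged from 11962228 to 21581595.

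Alb was present in eWAT at levels that differed 4851-fold between libraries. In ND-fed mice without ligature it was 5.55, 7.85 and 13.4 normalized CPM in WT libraries, and 397, 11700 and 13696 in CCL19-KI libraries. In ligatured ND-fed mice it was 4731, 5423 and 718 in WT and 4333, 7.67 and 9.31 in CCL19-KI mice. With the 40% HFD it was 17710, 5009 and 19185 in WT and 3877, 23726 and 14444 in CCL19-KI mice without ligature, and 4217, 267 and 15868 in WT and 5674, 26901 and 1724 in CCL19-KI mice with ligature. Under a 60% HFD it was 5796, 17092 and 24132 in WT but 444, 890 and 6.38 in CCL19-KI mice without ligature, and 9675, 7204 and 23618 in WT and 12274, 11118 and 1337 in CCL19-KI mice with ligature. Thus the unligatured ND-fed WT group and the unligatured 60% HFD-fed CCL19-KI group were low in Alb, and several other groups held both low and high libraries. In bulk tissue, fewer cells of a type and less RNA per cell cannot be told apart.

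Per kb of exon, mean levels over the 36 libraries were highest for Acadm (96.3 normalized CPM per kb) and Ehhadh (95.4), followed by Acadvl (69.6), Cpt2 (49.0), Cpt1a (37.8) and Hadha (30.0). Acot1 (9.34), Acot3 (6.59) and Cpt1b (1.31) were much lower. The genes differed in how far they varied. Cpt1a ranged from 130 to 566 normalized CPM with a median of 263, Acadm from 140 to 775 (372), Hadha from 110 to 552 (243), Acadvl from 59.7 to 559 (155) and Cpt2 from 35.2 to 373 (101). Ehhadh ranged from 22.9 to 2040 (157), which is 89.1-fold, and Acot1 from 0.300 to 222 (17.3), which is 741-fold. Cpt1b ranged from 0.972 to 26.1 (3.12).

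**Figure D1:**
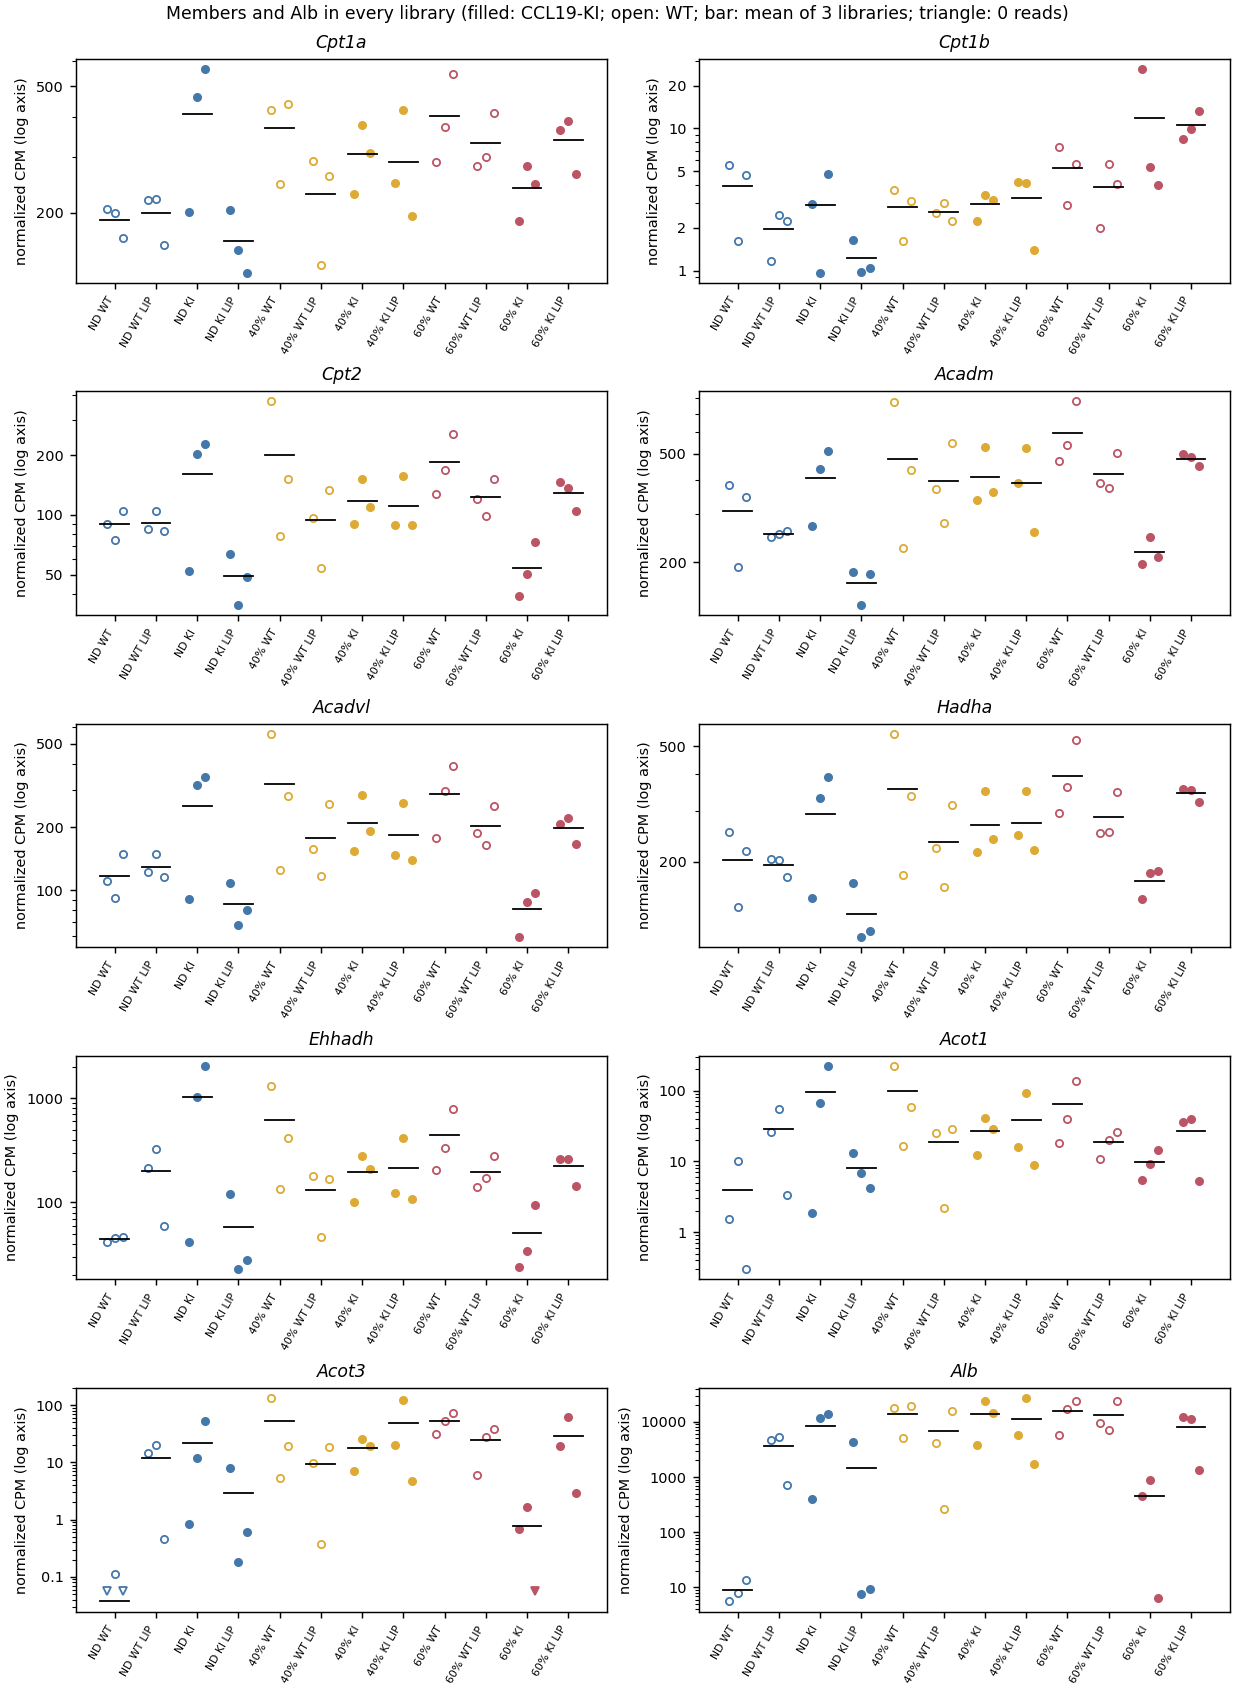
Normalized CPM (log axis) of the 9 genes and Alb in each of the 36 eWAT libraries, by group on the x axis; points are libraries (open, WT; filled, CCL19-KI), bars are means of 3 libraries and triangles mark 0 reads. Acot3 is at most 0.111 in the 3 unligatured ND-fed WT libraries and at most 1.66 in the 3 unligatured 60% HFD-fed CCL19-KI libraries, and Cpt1b is highest in a 60% HFD library (26.1).

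Acot3 was the gene closest to absent in some libraries. In ND-fed mice without ligature it was 0, 0.111 and 0 normalized CPM in WT, that is 0, 2 and 0 reads, and 0.849, 11.9 and 53.5 in CCL19-KI mice. Since a count of 0 allows up to 3 reads, the listed zeros allow up to 0.163 and 0.150 normalized CPM. In ligatured ND-fed mice it was 14.8, 20.4 and 0.464 in WT and 8.15, 0.184 and 0.613 in CCL19-KI mice. Both ligatured groups held a high and a low library, and their ranges overlapped. Under a 40% HFD it was 133, 5.28 and 19.0 in WT and 7.17, 25.8 and 19.7 in CCL19-KI mice without ligature. With ligature it was 9.95, 0.38 and 18.3 in WT and 20.5, 123 and 4.68 in CCL19-KI mice fed the 40% HFD. The 2 highest libraries of all, 133 and 123, were of different genotype and ligature status. Under a 60% HFD it was 31.8, 52.2 and 72.2 in WT and 0.682, 1.66 and 0 in CCL19-KI mice without ligature, and 6.03, 28.2 and 39.1 in WT and 19.1, 63.5 and 2.98 in CCL19-KI mice with ligature. The unligatured groups on this diet did not overlap, and the ligatured groups did.

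Ehhadh followed the same outline at a higher level. In ND-fed mice without ligature it was 41.8, 45.8 and 47.1 normalized CPM in WT and 41.3, 1035 and 2040 in CCL19-KI mice. With ligature it was 214, 328 and 60.0 in WT and 122, 22.9 and 28.2 in CCL19-KI mice. The values 1035 and 2040, in the libraries with the most Alb among ND-fed mice, were 2 of the 3 highest of the study. Under a 40% HFD it was 1297, 136 and 413 in WT and 102, 281 and 208 in CCL19-KI mice without ligature, and 178, 46.6 and 168 in WT and 124, 418 and 107 in CCL19-KI mice with ligature. Under a 60% HFD it was 203, 336 and 787 in WT and 24.0, 34.3 and 95.0 in CCL19-KI mice without ligature, and 140, 170 and 280 in WT and 262, 264 and 145 in CCL19-KI mice with ligature. The genotypes did not overlap in 1 stratum, 60% HFD without ligature.

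Cpt1b was low and did not follow this outline. In ND-fed mice without ligature it was 5.55, 1.61 and 4.70 normalized CPM in WT and 2.93, 0.972 and 4.78 in CCL19-KI mice, and with ligature 1.17, 2.48 and 2.24 in WT and 1.64, 0.982 and 1.04 in CCL19-KI mice. With the 40% HFD it was 3.68, 1.61 and 3.11 in WT and 2.25, 3.41 and 3.14 in CCL19-KI mice without ligature, and 2.56, 2.97 and 2.25 in WT and 4.21, 4.17 and 1.39 in CCL19-KI mice with ligature. Under a 60% HFD it was 7.38, 2.92 and 5.61 in WT and 26.1, 5.34 and 4.02 in CCL19-KI mice without ligature, and 2.01, 5.62 and 4.04 in WT and 8.43, 9.93 and 13.2 in CCL19-KI mice with ligature. The library of 26.1 held 459 reads of Cpt1b and stands apart from its group. Germ cell genes (6, including Prm1, Prm2 and Tnp1, chosen after this value was seen) summed to 649 normalized CPM in that library, the highest of all, and its brown adipocyte markers summed to 11.7; the part of germ cells in this value was not tested. The next highest sums, 143 in replicate 3 of the same group and 126 in unligatured ND-fed WT replicate 3, went with 4.02 and 4.70 of Cpt1b. In the 3 ligatured CCL19-KI libraries on the 60% HFD, germ cell genes summed to 0, 0 and 0.0745. The 3 ligatured CCL19-KI libraries on the 60% HFD were all above the 3 ligatured WT libraries on that diet. Cpt1b was the only one of the 9 genes with its highest group mean in a 60% HFD-fed CCL19-KI group, at 11.8 ± 12.4 (SD, n = 3).

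Acot1, the cytosolic thioesterase, followed Acot3. In ND-fed mice it was 1.52, 10.0 and 0.300 normalized CPM in WT and 1.84, 66.4 and 222 in CCL19-KI mice without ligature, and 26.3, 55.5 and 3.40 in WT and 13.2, 6.94 and 4.23 in CCL19-KI mice with ligature. Under a 40% HFD it was 219, 16.2 and 58.1 in WT and 12.3, 40.4 and 28.7 in CCL19-KI mice without ligature, and 25.0, 2.21 and 28.3 in WT and 16.2, 91.1 and 8.92 in CCL19-KI mice with ligature. Under a 60% HFD it was 18.4, 39.7 and 134 in WT and 5.46, 9.16 and 14.5 in CCL19-KI mice without ligature, and 10.9, 19.9 and 26.3 in WT and 36.1, 39.1 and 5.22 in CCL19-KI mice with ligature. The genotypes overlapped in all strata except 60% HFD without ligature.

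The entry step of mitochondrial oxidation varied less. Cpt1a in ND-fed mice was 205, 199 and 167 normalized CPM in WT and 200, 463 and 566 in CCL19-KI mice without ligature, and 219, 221 and 158 in WT and 205, 153 and 130 in CCL19-KI mice with ligature. On the 40% HFD Cpt1a was 421, 246 and 441 in WT and 228, 379 and 309 in CCL19-KI mice without ligature, and 290, 137 and 261 in WT and 248, 422 and 196 in CCL19-KI mice with ligature. On the 60% HFD Cpt1a was 290, 372 and 548 in WT and 189, 281 and 247 in CCL19-KI mice without ligature, and 280, 300 and 411 in WT and 364, 390 and 264 in CCL19-KI mice with ligature. Its 2 ND values above 400 belonged to the CCL19-KI libraries that were also high in Alb and Ehhadh. Cpt2 in ND-fed mice was 89.8, 74.8 and 104 in WT and 52.4, 203 and 228 in CCL19-KI mice without ligature, and 85.2, 104 and 83.4 in WT and 63.7, 35.2 and 48.9 in CCL19-KI mice with ligature. On the 40% HFD Cpt2 was 373, 78.3 and 152 in WT and 90.0, 151 and 110 in CCL19-KI mice without ligature, and 96.5, 53.8 and 134 in WT and 89.1, 156 and 89.3 in CCL19-KI mice with ligature. In ligatured 60% HFD-fed mice it was 121, 98.3 and 152 in WT and 146, 136 and 104 in CCL19-KI mice. The genotypes did not overlap for Cpt2 in ligatured ND-fed mice and in unligatured 60% HFD-fed mice, with CCL19-KI mice lower in both.

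The dehydrogenases and the trifunctional protein subunit had the same layout as Cpt2. Acadm in ND-fed mice was 383, 193 and 347 normalized CPM in WT and 271, 440 and 509 in CCL19-KI mice without ligature, and 248, 255 and 261 in WT and 184, 140 and 182 in CCL19-KI mice with ligature. On the 40% HFD Acadm was 769, 226 and 434 in WT and 337, 528 and 361 in CCL19-KI mice without ligature, and 370, 278 and 545 in WT and 392, 522 and 258 in CCL19-KI mice with ligature. In ligatured 60% HFD-fed mice it was 389, 374 and 502 in WT and 497, 486 and 451 in CCL19-KI mice. As for Cpt2, the genotypes did not overlap in ligatured ND-fed and unligatured 60% HFD-fed mice. Acadvl in ND-fed mice was 111, 91.3 and 149 in WT and 90.9, 318 and 346 in CCL19-KI mice without ligature, and 122, 148 and 116 in WT and 108, 68.0 and 80.6 in CCL19-KI mice with ligature. On the 40% HFD Acadvl was 559, 124 and 281 in WT and 154, 286 and 192 in CCL19-KI mice without ligature, and 157, 117 and 259 in WT and 147, 262 and 139 in CCL19-KI mice with ligature. In ligatured 60% HFD-fed mice it was 187, 164 and 253 in WT and 206, 221 and 165 in CCL19-KI mice. The 40% HFD-fed WT library with 559 of Acadvl also held the highest Cpt2 (373), Hadha (552) and Acot3 (133) of all 36 libraries. Hadha in ND-fed mice was 253, 140 and 218 in WT and 151, 331 and 393 in CCL19-KI mice without ligature, and 204, 203 and 178 in WT and 169, 110 and 116 in CCL19-KI mice with ligature. On the 40% HFD Hadha was 552, 180 and 338 in WT and 216, 351 and 239 in CCL19-KI mice without ligature, and 224, 164 and 315 in WT and 247, 351 and 219 in CCL19-KI mice with ligature. On the 60% HFD Hadha was 294, 362 and 525 in WT and 149, 183 and 185 in CCL19-KI mice without ligature, and 251, 254 and 349 in WT and 356, 354 and 322 in CCL19-KI mice with ligature. CCL19-KI mice lay below WT mice without overlap in the same 2 strata for Acadvl and Hadha. In ligatured ND-fed mice this held for 4 of the 9 genes and for 9.53% of all genes tested.

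In the order of the 12 group means, neighbours mostly could not be separated. Of the 11 neighbouring pairs, 0 were without overlap for Cpt1a, Acadvl, Hadha, Ehhadh, Acot1 and Acot3, 1 for Cpt1b and Cpt2, and 2 for Acadm. Cpt1a was highest in unligatured ND-fed CCL19-KI mice (410 ± 189, SD, n = 3) and lowest in ligatured ND-fed CCL19-KI mice (162 ± 38.4). Cpt2 was highest in unligatured 40% HFD-fed WT mice (201 ± 153) and lowest in ligatured ND-fed CCL19-KI mice (49.3 ± 14.2). Acadm and Hadha were highest in unligatured 60% HFD-fed WT mice, at 594 ± 161 and 394 ± 119, and lowest in ligatured ND-fed CCL19-KI mice, at 169 ± 24.9 and 132 ± 32.7. Acadvl ran from 321 ± 220 in unligatured 40% HFD-fed WT mice to 81.5 ± 19.4 in unligatured 60% HFD-fed CCL19-KI mice, and Acot1 from 97.9 ± 107 in unligatured 40% HFD-fed WT mice to 3.95 ± 5.29 in unligatured ND-fed WT mice.

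The diets were compared to ask whether fatty acid oxidation genes in eWAT differ with the fat content of the feed. Under a 60% HFD, 4 of the 9 genes were higher than under an ND, averaged over genotype and ligature, where 10.2% of 17852 genes tested were called higher. Cpt1b rose by 1.21 ± 0.24 on the log2(normalized CPM + 1) scale (SE; adjusted p = 0.00167), and its libraries ran from 0.972 to 5.55 (median 1.94) under an ND and from 2.01 to 26.1 (5.61) under a 60% HFD. Without the library of 26.1 the difference was 1.02 (adjusted p = 0.00126; 0.000808 to 0.0307 over all alternatives). Acadm rose by 0.58 ± 0.17 (adjusted p = 0.0187), from 140 to 509 normalized CPM (median 258) to 197 to 775 (460). Hadha rose by 0.56 ± 0.17 (adjusted p = 0.0263) and Cpt1a by 0.54 ± 0.17 (adjusted p = 0.0321). Hadha was 110 to 393 normalized CPM (median 191) under an ND and 149 to 525 (308) under a 60% HFD, and Cpt1a was 130 to 566 (203) and 189 to 548 (295). The diet groups overlapped for all 4 genes, with the medians higher under the 60% HFD. Acot3 differed by 1.74 ± 0.66 (adjusted p = 0.0619), Acot1 by 0.84 ± 0.64, Ehhadh by 0.55 ± 0.50, Acadvl by 0.42 ± 0.23 and Cpt2 by 0.36 ± 0.23, none past the threshold. The median over the 9 genes was 0.56, against 0.01 over all genes tested. Without both libraries at odds with Ccl19, 2 genes were called, Cpt1b and Acadm, and Cpt1a had an adjusted p of 0.0567 and Hadha of 0.0730 (0.00198 to 0.992 over the alternatives for Hadha, 0.00343 to 0.762 for Cpt1a). Without 60% HFD-fed WT replicate 3 of the unligatured mice, 2 genes were called.

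Under a 40% HFD, 2 of the 9 genes were higher than under an ND, where 5.36% of all genes tested were called higher. Acadm rose by 0.57 ± 0.17 (adjusted p = 0.0336), with 226 to 769 normalized CPM (median 381) under this diet. Acot3 rose by 2.06 ± 0.66 (adjusted p = 0.0474), with a median of 18.7 against 0.731 under an ND. The size for Acot3 depended on the pseudocount and was 3.09 with 0.1 and 1.21 with 5. Acadvl differed by 0.65 ± 0.23 (adjusted p = 0.0677) and Hadha by 0.48 ± 0.17 (adjusted p = 0.0745). The other 5 genes differed by 0.25 to 1.21, with adjusted p-values from 0.162 to 0.541. Leaving out 1 library ended the call of Acadm in 10 of 24 fits and that of Acot3 in 17 of 24, with differences of 0.46 to 0.68 and 1.74 to 2.35.

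The 60% and 40% HFD did not differ in any of the 9 genes by the adjusted p of limma, with 0.745% of all genes called. By the unadjusted p, 1 of the 9 was under 0.05, against 13.2% of all genes. By edgeR, 1 was called, with no share of all genes given. This was Cpt1b, at 0.97 ± 0.24 (adjusted p = 0.0537, and 0.0188 to 0.424 over the alternatives). The remaining 8 genes differed by -0.36 to 0.16.

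Hepatocyte markers moved with these differences. Of the 12 markers, 11 were called higher under the 60% HFD and 11 under the 40% HFD, with median differences of 2.99 and 3.79 on the log2 scale. Their summed level was 13.4 to 26210 normalized CPM (median 845) under an ND, 424 to 38776 (14899) under a 40% HFD and 12.6 to 37185 (13073) under a 60% HFD. Ttr, Fga, Fgb and F2 were at 0 in at least 1 ND library, and no marker was at 0 in any library of the other diets. With log2 Alb of each library in the fit, Cpt1b remained higher under the 60% HFD (1.04 ± 0.29, adjusted p = 0.0263), and the other 8 genes ranged from -0.59 to 0.27, with adjusted p-values of 0.386 or more. For the 40% HFD against ND, 0 of the 9 genes were called in that fit, and they ranged from -0.62 to 0.17. Cpt1b was also higher under the 60% than under the 40% HFD in that fit (1.02 ± 0.24, adjusted p = 0.0488). Of other lists, 4 of 7 macrophage markers were called higher and 1 lower, 4 of 10 kidney markers higher and 2 of 6 mesothelial markers lower under the 60% HFD. Since Cpt1b is known from muscle and brown fat, their markers were set beside it. Skeletal muscle markers summed to 34.7 to 525 normalized CPM under an ND and to 24.9 to 132 under a 60% HFD, and 0 of 9 tested were called higher and 2 lower, whereas 6 of 9 were lower under the 40% HFD. Brown adipocyte markers summed to 4.95 to 84.2 and 11.7 to 76.0, with 1 of 5 tested called higher, and Ucp1 was at 0 in at least 1 library of each diet.

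**Figure D2:**
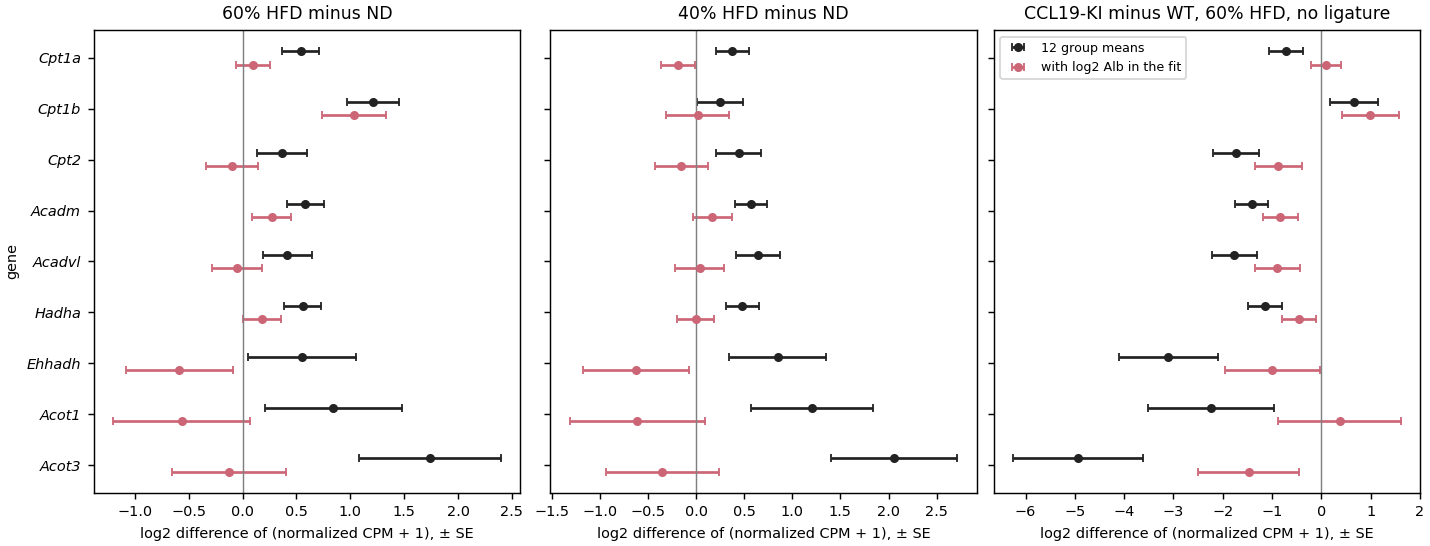
Differences on the log2(normalized CPM + 1) scale (x axis, ± SE) of the 9 genes (y axis) for 60% HFD against ND, 40% HFD against ND and CCL19-KI against WT under the 60% HFD without ligature, from the fit of 12 group means (black) and with log2 Alb added (red). With Alb in the fit, the difference of Cpt1b under the 60% HFD goes from 1.21 to 1.04, and that of Acot3 from 1.74 to -0.12.

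The genotypes were compared to ask whether expression of Ccl19 from the adipocyte locus goes with a difference in these genes. Averaged over diet and ligature, 0 of the 9 genes were called by limma, with 0.459% of all genes called in either direction. By the unadjusted p, 0 of the 9 and 16.9% of all genes were under 0.05, and edgeR called 0 of the 9. The differences ranged from -0.37 ± 0.19 for Cpt2 to 0.24 ± 0.20 for Cpt1b, with a median of -0.25 against -0.02 over all genes.

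The genotypes were also compared within each diet and ligature status. In unligatured mice fed an ND, Ehhadh was higher in CCL19-KI mice by 3.29 ± 1.01 (adjusted p = 0.0283), the only one of the 9 called, with 6.92% of all genes called higher. Acot1 and Acot3 differed by 3.40 each (SE 1.27 and 1.31; adjusted p = 0.0643 and 0.0732) and Cpt1a by 0.98 ± 0.35 (adjusted p = 0.0519). CCL19-KI replicates 2 and 3 were the high libraries, while replicate 1 was within the WT range for Cpt1a and Acot1 and just under it for Ehhadh. For Acot3, replicate 1 had 0.849 normalized CPM, above the WT libraries, which were at most 0.111. For Ehhadh, without replicate 2 the adjusted p was 0.164 and without replicate 3 it was 0.203 (2.01e-06 to 0.984 over the alternatives). All 12 hepatocyte markers were higher in these CCL19-KI mice, with sums of 596 to 26210 normalized CPM against 13.4 to 16.3 in WT, where Ttr, Fgb and F2 were at 0 in at least 1 library, and 6 of 7 exocrine pancreas markers were higher as well (sums of 35.3 to 138 against 11.1 to 62.6), with 1 kidney and 1 mesothelial marker. Of the 10 adipocyte markers, 4 were called lower, with sums of 9763 to 23199 against 18279 to 34047. With log2 Alb in the fit, the difference of Ehhadh was 0.47 ± 1.08 (adjusted p = 0.857). Alb was 397 to 13696 normalized CPM in these CCL19-KI libraries and 5.55 to 13.4 in WT, without overlap. That fit therefore cannot tell a difference that goes with Alb from one that goes with genotype here.

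In unligatured mice fed a 60% HFD, 6 of the 9 genes were lower in CCL19-KI than in WT mice, where 8.06% of all genes were called lower. Cpt2 was 128, 168 and 256 normalized CPM in WT and 39.2, 50.5 and 72.8 in CCL19-KI mice, and fell by 1.73 on the log2 scale (SE 0.47, adjusted p = 0.0167). Acadm was 469, 537 and 775 in WT and 197, 248 and 209 in CCL19-KI mice, and fell by 1.41 (SE 0.34, adjusted p = 0.00988). Acadvl was 177, 296 and 391 in WT and 59.7, 87.6 and 97.1 in CCL19-KI mice, and fell by 1.77 (SE 0.45, adjusted p = 0.0134). In all, 8 of the 9 genes, these and all others but Cpt1b, were lower in the 3 CCL19-KI than in the 3 WT libraries without overlap, as were 16.3% of all genes tested. Hadha fell by 1.15 (SE 0.34, adjusted p = 0.0251), Ehhadh by 3.11 (SE 1.01, adjusted p = 0.0354) and Acot3 by 4.93 (SE 1.31, adjusted p = 0.0161), the last as a fitted value that was -3.25 with a pseudocount of 5. Cpt1a differed by -0.72 ± 0.35 (adjusted p = 0.152) and Acot1 by -2.24 ± 1.27 (adjusted p = 0.233), whereas Cpt1b differed by 0.66 ± 0.48, and by -0.09 without CCL19-KI replicate 1.

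Calls of this stratum were lost without some libraries, while the differences kept their direction for the 6 genes called, at -1.96 to -1.46 for Cpt2, -1.57 to -1.21 for Acadm, -2.08 to -1.51 for Acadvl, -1.34 to -0.92 for Hadha, -3.67 to -2.58 for Ehhadh and -5.28 to -4.57 for Acot3 when 1 library was left out. Without WT replicate 3, 0 of the 9 genes were called, without WT replicate 2 it was 1, and without CCL19-KI replicate 1 it was 3; without both libraries at odds with Ccl19 it was 6. All 12 hepatocyte markers were lower in these CCL19-KI mice, with sums of 12.6 to 1389 normalized CPM against 8833 to 37185 in WT, and no marker was at 0. Epididymis markers (Crisp1, Lcn5, Lcn8 and others) moved the other way, with 3 of 5 tested called higher and sums of 318 to 9566 against 0.154 to 0.268. Smooth muscle markers were called higher for 3 of 6 (sums of 727 to 1511 against 180 to 391), and kidney markers lower for 5 of 10 (70.4 to 154 against 230 to 284). Adipocyte markers summed to 13147 to 16054 in CCL19-KI and 18581 to 25750 in WT mice, without overlap, with 0 of 10 called. Brown adipocyte markers summed to 11.7 to 12.3 against 21.8 to 76.0, with 1 of 5 tested called lower. With log2 Alb in the fit, 0 of the 9 genes were called, and the differences were -0.87 ± 0.48 for Cpt2, -0.83 ± 0.35 for Acadm and -0.89 ± 0.45 for Acadvl. Those of Hadha, Ehhadh and Acot3 were -0.46 ± 0.34, -0.99 ± 0.97 and -1.47 ± 1.03. In this stratum Alb was 6.38 to 890 normalized CPM in CCL19-KI and 5796 to 24132 in WT libraries, without overlap. The fit therefore cannot tell a difference that goes with Alb from one that goes with genotype here. What part the other tissues have in these differences was not tested.

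In the remaining strata 0 of the 9 genes were called by limma or by edgeR. By the unadjusted p, 0 of the 9 genes were under 0.05 in ligatured ND-fed mice (12.6% of all genes), 0 in unligatured (6.64%) and 0 in ligatured 40% HFD-fed mice (3.18%), and 1, Cpt1b, in ligatured 60% HFD-fed mice (2.48%). In ligatured ND-fed mice, 1.03% of all genes were called, and the genes differed by -1.88 (Ehhadh) to -0.31 (Cpt1a). Of the markers there, 0 of 12 for hepatocytes (median -4.15) and 6 of 9 for skeletal muscle were called, the latter higher. Sums in CCL19-KI against WT mice were 14.8 to 6444 against 1094 to 8738 for hepatocytes. They were 144 to 5433 against 110 to 141 for smooth muscle (0 of 6 called) and 15.7 to 2210 against 0.608 to 4.41 for epididymis (0 of 5 called). Adipocyte markers summed to 12682.8 to 21007.2 in CCL19-KI and 26676.8 to 32378.5 in WT mice, without overlap. Of these markers 0 of 10 were called (median -0.74). What part this has in the differences of the 9 genes was not tested. With log2 Alb in the fit, the genes differed by -0.23 (Cpt2) to 1.13 (Acot3), with adjusted p-values of 0.773 or more. In 40% HFD-fed mice, 0.00560% of all genes were called without ligature and 0.0112% with ligature. In the ligatured 40% HFD-fed mice Acot3 differed by 1.90 ± 1.31 (adjusted p = 1), and Acadm by -0.03 ± 0.34. In ligatured 60% HFD-fed mice, 0.0112% of all genes were called, and Cpt1b differed by 1.29 ± 0.48 (adjusted p = 1). The 3 CCL19-KI libraries of that stratum lay above the 3 WT libraries for Cpt1b only among the 9 genes, as they did for 7.17% of all genes tested. The difference of the genotype effect between the 60% HFD and the ND, averaged over ligature, was called for 0 of the 9 genes and 0.476% of all genes, and that between the 40% HFD and the ND for 0 of the 9 and 0% of all genes. By edgeR, 1 and 0 of the 9 were called, with no share of all genes given. By the unadjusted p, 4 of the 9 genes were under 0.05 for the 60% HFD and 0 for the 40% HFD, against 22.3% and 11.0% of all genes. The 4 were Acot3 (-3.47 ± 1.31, adjusted p = 0.127), Ehhadh (-2.16 ± 1.01, adjusted p = 0.204), Acadvl (-1.04 ± 0.45, adjusted p = 0.177) and, in the other direction, Cpt1b (1.36 ± 0.48, adjusted p = 0.107).

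The ligature was compared to ask whether periodontitis goes with a difference in eWAT. Averaged over diet and genotype, 0 of the 9 genes were called by limma, with 0.325% of all genes called. By the unadjusted p, 16.2% of all genes and 1 of the 9, Cpt1a, were under 0.05, the latter at -0.29 ± 0.14 (adjusted p = 0.306), and Acot3 differed by 0.26 ± 0.54. Of the 9 genes, 8 had a negative difference, with a median of -0.25 against -0.02 over all genes. With log2 Alb in the fit, the 9 genes differed by -0.63 (Acot1) to -0.14 (Acot3). Cpt1a was -0.39 ± 0.11 in that fit (adjusted p = 0.0634, and 0.0486 to 0.701 over the alternatives other than leaving out 1 library).

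The levels were then set against Alb across libraries of the same group. The slope of log2(normalized CPM + 1) on log2(Alb + 1), fitted within the 12 groups, was positive for all 9 genes and was called for 7, where 6.09% of 17851 genes were called positive. Acot3 had the steepest slope, 0.53 ± 0.09 (SE; adjusted p = 0.000102), which was above that of 98.8% of genes tested. It was followed by Acot1 at 0.40 ± 0.11 (adjusted p = 0.0177) and Ehhadh at 0.32 ± 0.08 (adjusted p = 0.0129). The mitochondrial genes had shallower slopes, namely 0.13 ± 0.04 for Acadvl (adjusted p = 0.0310), 0.13 ± 0.04 for Cpt2 (adjusted p = 0.0484), 0.12 ± 0.03 for Cpt1a (adjusted p = 0.00219) and 0.11 ± 0.03 for Hadha (adjusted p = 0.0202). Acadm had 0.09 ± 0.03 (adjusted p = 0.0726) and Cpt1b 0.05 ± 0.05 (adjusted p = 0.565). By comparison, the 11 hepatocyte markers besides Alb had a median slope of 0.84, and all 11 were called.

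The calls differed in how far they held when 1 library was left out. Those of Acot3 and Cpt1a held in all 36 fits, those of Hadha, Ehhadh and Acot1 were lost in 1, that of Acadvl in 5 and that of Cpt2 in 30. Without the unligatured ND-fed CCL19-KI replicate 1, which was the only library of its group with low Alb, 2 genes were called, Acot3 (0.50) and Cpt1a (0.11), while the slopes of Ehhadh (0.23) and Acot1 (0.31) had adjusted p-values of 0.0616 and 0.0887 (4.69e-07 to 0.0692 and 4.00e-06 to 0.0955 over the other alternatives).

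**Figure D3:**
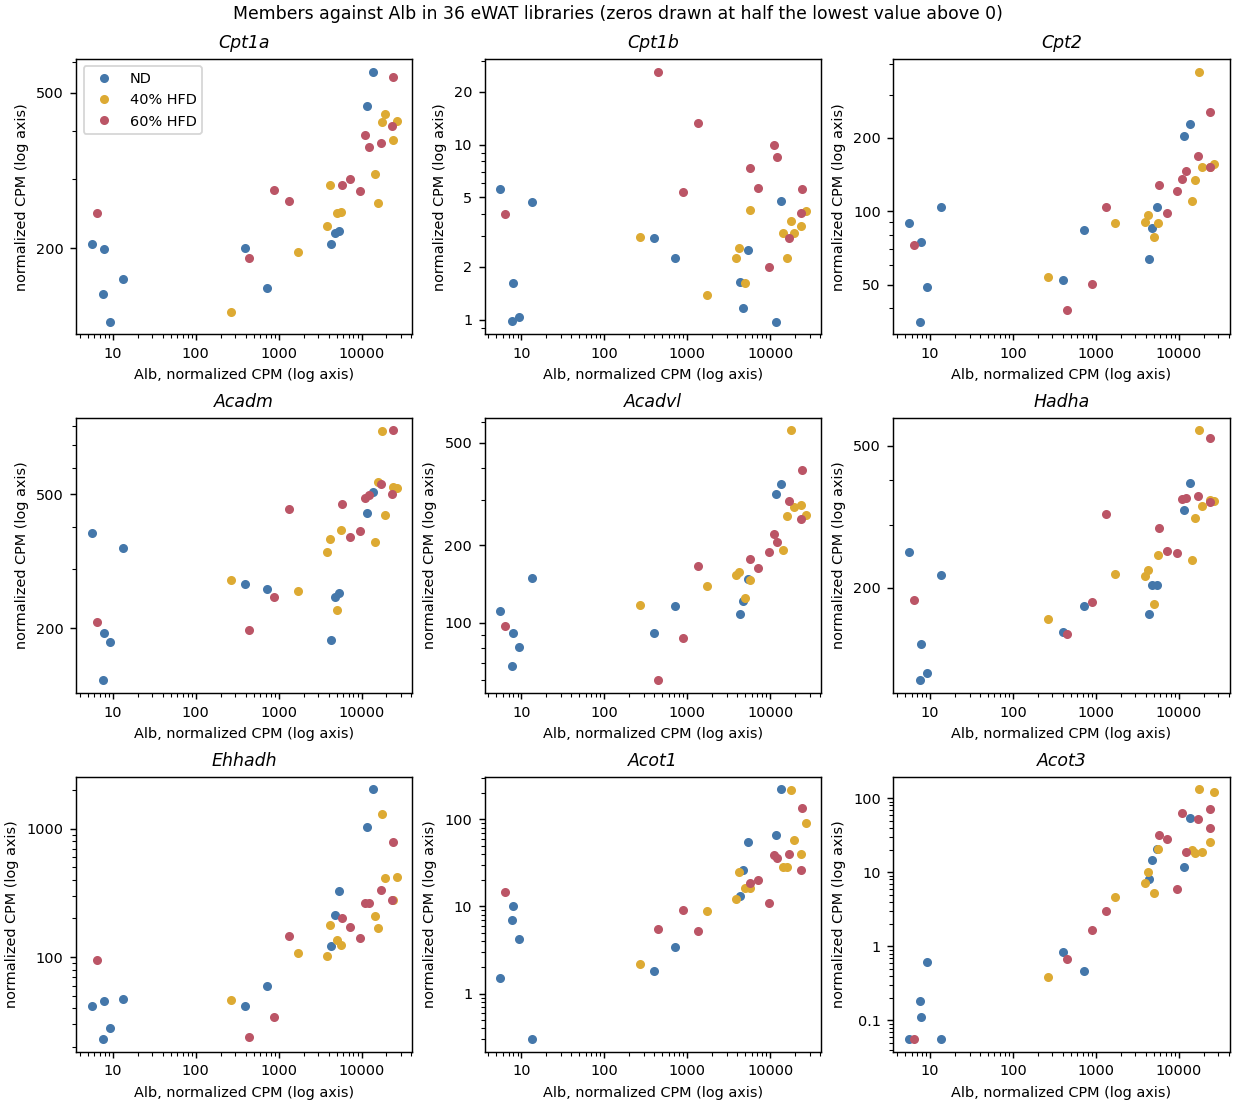
Normalized CPM of each of the 9 genes (y axis, log) against that of Alb (x axis, log) in 36 libraries, coloured by diet. Acot3 spans 0 to 133 normalized CPM along the range of Alb (5.55 to 26901), whereas Cpt1b stays between 0.972 and 26.1 with its highest points in 60% HFD libraries.

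The ratio of each gene to Alb was not the same in all libraries. In the 25 libraries with at least 1000 normalized CPM of Alb, Ehhadh was 10.6 to 149 per 1000 of Alb (median 26.3), a 14.1-fold range, and Acot3 was 0.623 to 7.52 (2.36), a 12.1-fold range. For Ehhadh the median ratio was 60.4 in the 5 ND libraries of this kind, 21.9 in the 11 of the 40% HFD and 23.6 in the 9 of the 60% HFD. The ratio of Acot3 had medians of 3.12, 1.85 and 2.99. These values are a description, since any transcripts of the fat itself add to the ratio most where Alb is low.

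**Figure D4:**
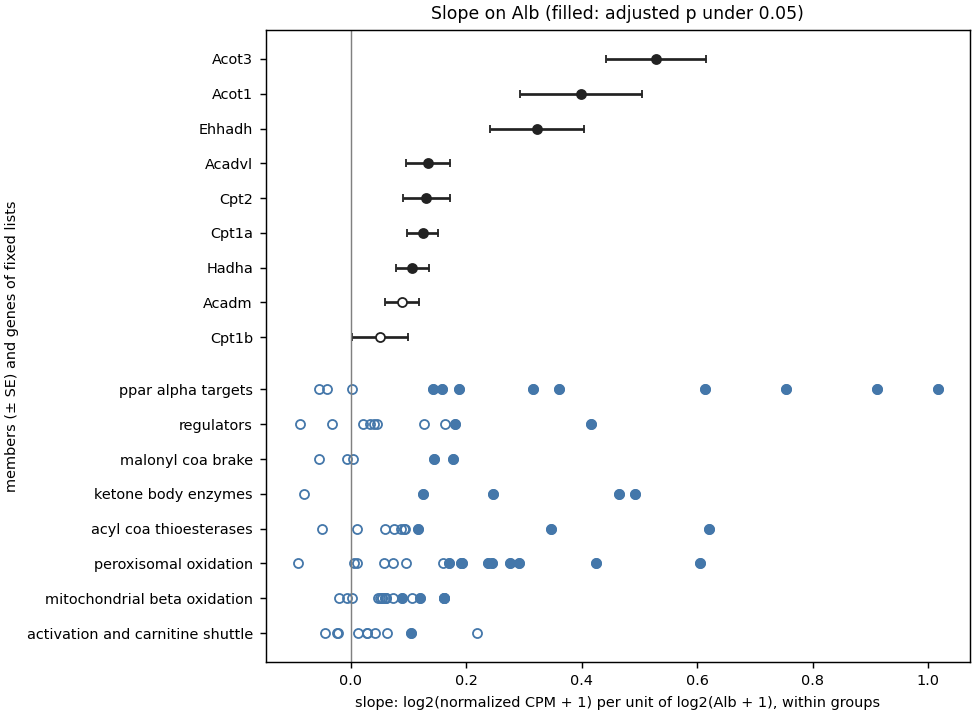
Slope of log2(normalized CPM + 1) on log2(Alb + 1) within groups (x axis) for the 9 genes (± SE) and, as points, for the genes of 8 lists of fatty acid metabolism (y axis); filled points passed an adjusted p of 0.05. Acot3, Acot1 and Ehhadh (0.53, 0.40 and 0.32) lie above the other 6 genes, and the steepest listed gene, Cyp4a14, has a slope of 1.02.

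Other genes of the pathway, in 8 lists of 88 genes of which 85 were tested, were tested in the same fits. Under the 60% HFD, 18 were higher and 3 lower than under an ND, with a median of 0.37. Of all 17852 genes tested, 1816 were called higher and 1499 lower under this diet. The largest rises were those of Fabp1, a fatty acid binding protein of liver (2.98 ± 0.78, adjusted p = 0.0106), Bdh1, a ketone body enzyme (2.04 ± 0.65), the thioesterase Acot12 (1.94 ± 0.68), the liver transcription factor Creb3l3 (1.93 ± 0.66) and the peroxisomal thiolase Acaa1b (1.66 ± 0.52). The 3 that fell were Acacb, which makes the malonyl-CoA that holds back carnitine palmitoyltransferase (-0.85 ± 0.25, adjusted p = 0.0219), the adipocyte regulator Pparg (-0.46 ± 0.16, adjusted p = 0.0499) and Prkaa1, a catalytic subunit of AMPK (-0.29 ± 0.08, adjusted p = 0.0201). Under the 40% HFD, 20 were higher, led by Fabp1 (4.01 ± 0.78), the PPAR-alpha targets Cyp4a14 (3.39 ± 1.05) and Cyp4a10 (3.32 ± 0.95), Creb3l3 (2.58 ± 0.66) and Acot12 (2.47 ± 0.68), and 1 was lower, Cpt1c (-0.52 ± 0.14), the brain type of the enzyme. Of all genes tested, 957 were called higher and 688 lower under the 40% HFD. Averaged over strata, 0 of the 85 were called for the genotype, for the ligature or between the HFDs.

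By list, the peroxisomal genes had a median of 0.73 and the PPAR-alpha targets of 0.87 under the 60% HFD, against 0.28 for mitochondrial beta-oxidation, 0.28 for other thioesterases and -0.29 for the malonyl-CoA genes. In unligatured 60% HFD-fed mice, where all 12 hepatocyte markers were lower and 8.06% of all genes were called lower, 48 of the 85 were lower and 0 higher in CCL19-KI than in WT mice, including 15 of 17 genes of mitochondrial beta-oxidation and 13 of 16 peroxisomal genes. In the slope on Alb, 34 of the 85 were positive and 0 negative, including 9 of 12 PPAR-alpha targets (Cyp4a14 1.02 ± 0.08, Cyp4a10 0.91 ± 0.08, Fabp1 0.75 ± 0.06, Creb3l3 0.61 ± 0.06), 9 of 16 peroxisomal genes and 3 of 10 thioesterases (Acot12 0.62 ± 0.07), but 4 of 17 genes of mitochondrial beta-oxidation and 1 of 10 genes of activation and the carnitine shuttle.

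The genes most like each of the 9, by Pearson r of log2(normalized CPM + 1) over the 36 libraries, are given as a description, since libraries share their tissue makeup. For Acot3 they were the xenobiotic receptor Nr1i3 (0.960), Cyp2c38 (0.959) and Acnat2 (0.954). For Ehhadh they were Cyp4a31 (0.957), Phyh (0.952) and Nlrp12 (0.944), and for Acot1 Chchd10 (0.954), Stard10 (0.939) and Pank1 (0.933). For Cpt2 they were Acadvl (0.972), the ATP synthase subunit Atp5a1 (0.969) and Etfdh (0.967), and for Acadm Hsd17b4 (0.978), Decr1 (0.969) and Hadha (0.960). For Acadvl they were Acat1 (0.979), Etfdh (0.979) and Fah (0.977), an enzyme of tyrosine breakdown, and for Hadha Etfdh (0.972), the mitochondrial translation factor Gfm1 (0.966) and Slc25a20 (0.965). Cpt1a stood nearest to Pafah2 (0.957), Pctp (0.946) and Them7 (0.939). Cpt1b had weaker neighbours, Cc2d2b (0.830), Dsg1a (0.825) and Sgo2a (0.808).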

How the data were processed

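The authors trimmed the reads with Trimmomatic (0.38), aligned them with Bowtie2 and counted them with RSEM (1.3.0), per the labels, and deposited edgeR-normalized CPM (read counts scaled to library size), a signal per gene and library. The labels name GRCm39 as the build and the methods mm10, and the annotation release was not given in the sources used here. All values were whole multiples of the worth of 1 read (tolerance 0.01), so that reads could be recovered. Gene names were found for 24626 of 24750 IDs. Reads per library (median 15573273) set the counting error, and 0 reads was read as up to 3. Main differences were fitted with limma 3.58.1 (R 4.3.3; trend, empirical Bayes) on log2(normalized CPM + 1) of genes with at least 1 normalized CPM in 3 or more libraries, with 12 group means over 36 libraries (24 residual degrees of freedom), and p-values were adjusted by Benjamini-Hochberg over all 17852 genes at 0.05. The labels give separate samples. The limma p-values rest, for each gene, on 1 spread between libraries, pooled over the 12 groups and moderated across genes. Within a stratum they therefore do not measure the spread of the compared libraries alone. In 14 comparisons, 16 other settings, each library left out in turn and 3 settings chosen after seeing the data were tried, among them edgeR 4.0.16. The fits were tested on simulated data. All 9 genes and, of the pathway lists, up to 5 genes with the largest called rise and fall were named. The genes, lists and markers were chosen with earlier results of these data known. GENCODE M21 gave gene positions, lengths and shared 31-base words, and Python 3.11.15 was used for summaries.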

Additional observations from a re-analysis of the deposited data

How the results depend on the processing

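The replicate block for 40% HFD against ND and the fits without 1 library are given below. Apart from these, the number of the 9 genes called changed by more than 1.5 times under the following settings (other counts did not). For 60% HFD against ND (4), it was 2 by the criteria of the study (unadjusted p and 1.5-fold), 1 with log2 Alb or marker scores as covariates, 8 without unligatured ND-fed CCL19-KI replicates 2 and 3, and 2 without both libraries at odds with Ccl19. For 40% HFD against ND (2), it was 4 by edgeR on recovered reads, 0 with log2 Alb or marker scores, 1 without a filter, with a pseudocount of 5, with quantile normalization and with robust estimation, 8 without the same 2 ND libraries, and 0 without the libraries at odds with Ccl19. For 60% against 40% HFD (0), it was 1 by the criteria of the study, by edgeR, with log2 Alb, without the 2 ND libraries and without those at odds with Ccl19. For the genotype in unligatured ND-fed mice (1), it was 4 by the criteria of the study, by edgeR and with a pseudocount of 0.1, 7 with sample quality weights, 2 with a mean filter of 5, median-of-ratios scaling, quantile normalization, without the libraries at odds with Ccl19 and without 60% HFD-fed CCL19-KI replicates 1 and 3 (those with the most germ cell RNA), and 0 with log2 Alb, marker scores, the compared groups only, mice of the same ligature status only and without the 2 ND libraries. For the genotype in unligatured 60% HFD-fed mice (6), it was 0 with log2 Alb, marker scores or without replicates 1 and 3, and 1 with mice of the same ligature status only. The genotype effect under 60% HFD against ND (0) gave 4 by the criteria of the study, 1 by edgeR and 6 with quality weights. Quality weights also gave 8 for the genotype in ligatured ND-fed mice and 2 for the ligature, and the criteria of the study gave 1 for the genotype in ligatured 60% HFD-fed mice. The slope on Alb (7) gave 2 without the 2 ND libraries. The settings that left out 2 libraries were chosen after seeing the data. By the criteria of the study, 1220 of 17852 genes were higher and 544 lower for 60% HFD against ND. Between the HFDs it was 287 and 119. For the genotype it was 1909 and 2248 in unligatured ND-fed and 195 and 57 in ligatured 60% HFD-fed mice. For the genotype effect under 60% HFD against ND it was 1185 and 1393. Shares of all genes under the other settings are not given, so those counts are not read as results about the 9 genes.

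Leaving out each library in turn gave 2 to 5 calls for 60% HFD against ND, 0 to 4 for 40% HFD against ND, 0 to 1 between the HFDs, 0 to 6 for the genotype in unligatured ND-fed mice, 0 to 6 in unligatured 60% HFD-fed mice, 0 to 3 for the genotype effect under 60% HFD against ND, 2 to 8 for the slope, and 0 to 0 elsewhere. For the genotype in unligatured ND-fed mice it was 0 without WT replicate 1 or 3 or CCL19-KI replicate 2 or 3, and 6 without CCL19-KI replicate 1. In fits without 1 library, Cpt1b and Acadm under 60% HFD remained called in all 24, Hadha was lost in 2 and Cpt1a in 10, and the difference of Cpt1b in unligatured 60% HFD-fed mice was -0.091 to 1.12.

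Directions turned mainly where RNA of other tissues was in the fit, and the cause was not tested. With log2 Alb, the 60% HFD differences were -0.055 (Acadvl), -0.56 (Acot1), -0.12 (Acot3), -0.10 (Cpt2) and -0.59 (Ehhadh). The 40% HFD differences were -0.61 (Acot1), -0.35 (Acot3), -0.19 (Cpt1a), -0.15 (Cpt2), -0.62 (Ehhadh) and -0.0044 (Hadha). Acot3 with ligature was -0.14, and the genotype differences in unligatured 60% HFD-fed mice were 0.37 (Acot1) and 0.093 (Cpt1a). With marker scores, the 60% HFD differences were -0.42 (Acadvl), -1.64 (Acot1), -1.04 (Acot3), -0.10 (Cpt1a), -0.43 (Cpt2) and -1.22 (Ehhadh). Those of the 40% HFD were -0.12 (Acadm), -0.47 (Acadvl), -2.04 (Acot1), -1.38 (Acot3), -0.49 (Cpt1a), -0.60 (Cpt2), -1.38 (Ehhadh) and -0.23 (Hadha). Those of the genotype in unligatured 60% HFD-fed mice were 2.05 (Acot1), 0.11 (Acot3), 0.39 (Cpt1a) and 0.094 (Ehhadh). Ehhadh in unligatured ND-fed mice was -0.78 with marker scores and -0.12 without the 2 ND libraries, a setting that removes its 2 high values and leaves 1 library in the group.

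With the replicate number as a block, 40% HFD against ND gave 1 call, and the block changed no other count of calls. Samples of the same number in different groups had a median correlation of deviations of -0.0153 over 198 pairs, against 0.0172 over 396 pairs of other numbers, so that the numbers did not pair the samples. Acot3 rested on 0 to 2 reads in unligatured ND-fed WT libraries, so that its fitted differences move with the pseudocount (60% HFD against ND 2.51 with 0.1 and 1.09 with 5).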
